A study of Mus musculus with 6 samples.

Results

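Mtx1, Thbs3, Muc1, Trim46, Krtcap2, Fam189b, Scamp3, Dpm3 and Efna1 are 9 protein-coding genes that lie around Mir92b, the gene of the microRNA miR-92b, on mouse chromosome 3. They were chosen by position, as the rows of the deposited gene count table with these symbols, and make up 9 of its 34714 symbols. All 9 passed the filter on low counts and were among the 15788 genes tested. The study asked how miR-92b affects glycogen and lactate handling in skeletal muscle. One of its experiments was RNA sequencing of gastrocnemius (Gas) muscle from 3 wild-type (WT) and 3 miR-92b knockout (M92KO) mice. Both groups were untreated, 8 weeks old and on a standard rodent diet. The study's methods describe the mice as male. M92KO mice carried a global, homozygous deletion of Mir92b on a C57BL/6JGpt background (1 purchased line), and WT mice were age-matched C57BL/6 animals. Whether the WT mice were littermates of the knockouts, and where the deletion begins and ends, is not given in the sources used here. Mir92b itself was not analysed here, so the genotype was not checked on the targeted gene. The labels give replicate numbers without stating separate animals for each library, so p-values measure the spread between these samples.

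A microRNA is cut from a hairpin in a longer transcript, and its mature strand pairs through a short seed with sites in messenger RNAs, which are then destabilized or translated less. Deleting a microRNA gene removes DNA as well as the RNA, and near a gene-dense locus that DNA may hold promoters, ends of transcripts or regulatory elements of the genes next to it. The genes around Mir92b code for proteins of various functions. Krtcap2 and Dpm3 act in protein glycosylation in the endoplasmic reticulum, Mtx1 in import of proteins into mitochondria and Scamp3 in membrane recycling. Thbs3, Muc1 and Efna1 are secreted or cell-surface proteins, Trim46 organizes microtubules, and Fam189b is a membrane protein of the ENTREP family.

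The sequence and setting of the deleted gene are shown first, because the neighbouring genes are defined by their distance from it. In GRCm38.p6 (RefSeq) the Mir92b hairpin occupies 83 bases at chr3:89227116-89227198 on the minus strand. It lies between the end of Thbs3 and the start of Muc1, which are both on the plus strand. The hairpin is given below with its mature arms in capitals, and each mature microRNA with its seed (bases 2 to 8) in capitals.
Mir92b hairpin: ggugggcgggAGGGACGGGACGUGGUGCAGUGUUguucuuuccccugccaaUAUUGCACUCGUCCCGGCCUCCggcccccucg
miR-92b-5p (chr3:89227165-89227188, minus strand): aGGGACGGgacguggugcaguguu
miR-92b-3p (chr3:89227126-89227147, minus strand): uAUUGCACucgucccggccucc
The seed of miR-92b-3p is shared by 6 mature mouse microRNAs in the RefSeq table (miR-25-3p, miR-32-5p, miR-92a-3p, miR-92b-3p, miR-363-3p and miR-367-3p), whereas that of miR-92b-5p belongs to 1 name. The nearest annotated gene is LOC115489723, an uncharacterized long non-coding RNA at chr3:89225534-89227109 on the same strand as the hairpin. It starts 7 bases downstream of it. The window from 250 bases before to 50 bases after its start (chr3:89227060-89227359, minus strand) holds the complete hairpin, here in capitals at bases 162 to 244.
LOC115489723 start window: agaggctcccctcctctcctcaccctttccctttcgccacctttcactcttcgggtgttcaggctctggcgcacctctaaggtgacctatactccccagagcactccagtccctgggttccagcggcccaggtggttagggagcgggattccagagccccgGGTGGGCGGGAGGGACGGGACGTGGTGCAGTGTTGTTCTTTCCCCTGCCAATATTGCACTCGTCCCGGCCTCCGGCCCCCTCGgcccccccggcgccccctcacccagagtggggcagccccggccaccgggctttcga

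Among the 9 genes, Thbs3 ends nearest to the hairpin in RefSeq, at a distance of 275 bases. Muc1 starts 1858 bases from it, and Trim46 (6971 bases), Mtx1 (13209 bases) and Krtcap2 (18706 bases) follow. Dpm3 (29867 bases), Fam189b (37825 bases), Scamp3 (44346 bases) and Efna1 (44532 bases) are the most distant. RefSeq places Mtx1 at chr3:89209081-89213907 (minus strand), Thbs3 at chr3:89215180-89226841 (plus), Muc1 at chr3:89229056-89233381 (plus) and Trim46 at chr3:89234169-89246358 (minus). Krtcap2 is at chr3:89245904-89249729 (plus), Dpm3 at chr3:89257065-89267079 (plus), Fam189b at chr3:89183143-89189291 (plus), Scamp3 at chr3:89177391-89182770 (plus) and Efna1 at chr3:89271730-89280951 (minus). Mtx1 and Thbs3 are divergent, with RefSeq starts 1273 bases apart. Trim46 and Krtcap2 are also on opposite strands, and their RefSeq spans overlap at their starts. GENCODE M21 also has an Mtx1 transcript that begins 28 bases from the hairpin and ends within Thbs3, on the opposite strand, and another that runs through all of Thbs3.

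The annotations overlap, which limits what a count on 1 gene means. Annotated exons of Mtx1 and Thbs3 share 318 bases (8.87% of the Mtx1 exons and 6.59% of the Thbs3 exons), and those of Trim46 and Krtcap2 share 239 bases (6.3% and 15.7%). Mtx1 further shares 759 bases with Gm43737 and Scamp3 shares 252 bases with Gm16069, both on the opposite strand. Whether the counting used strand, and how it treated such reads, is not given in the sources used here. Reads in these stretches could belong to either gene.

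Library totals ran from 33160508 to 48209846 counts, and all 3 WT totals were above all 3 M92KO totals. Levels are given as CPM, counts scaled by the TMM-normalized library size, and a floor of 3 counts corresponded to 0.0629 to 0.0916 CPM. Markers of muscle fibres summed to 139200 to 154000 CPM in WT and to 140100 to 147300 CPM in M92KO libraries. Of these 10 markers, 1 was below an unadjusted p of 0.05 in edgeR. It was Myh2, a fast myosin heavy chain, with 2124, 2239 and 1612 CPM in WT and 2018, 3575 and 4099 CPM in M92KO (log2 fold change 0.70, adjusted p = 0.314). No gene of the 15788 passed an adjusted p of 0.05 in edgeR's quasi-likelihood test (0.0%). Without adjustment, the threshold that the study used, 1955 genes (12.4%) were below 0.05, 863 of them higher (5.47%) and 1092 lower (6.92%) in M92KO. At an adjusted p of 0.05 the Wald test of DESeq2 called 322, and edgeR called 401 when M92KO replicate 1 was left out.

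Muc1 and Krtcap2 were the 2 neighbouring genes that differed at an unadjusted p under 0.05, and both were higher in M92KO. None of the 9 reached an adjusted p of 0.05, and their smallest adjusted p in edgeR was 0.349. The same 2 genes were those whose M92KO libraries were all above the WT libraries, and none had all M92KO libraries below WT. Among all tested genes, 1385 (8.77%) separated completely upward and 1513 (9.58%) downward, 2898 (18.4%) in all. With 3 against 3 libraries the smallest two-sided exact permutation p is 0.1, so that test could not pass 0.05. The log2 fold change was above 0 for 7 genes and below 0 for 2, with a median of 0.14 where the median of all tested genes was within 0.001 of 0. The median size of the change, whatever its sign, was 0.18 for the neighbours and 0.12 for all genes. Members were few, so 2 of 9 is a description beside the 12.4% of all genes and nothing was read from it.

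**Figure D1:**
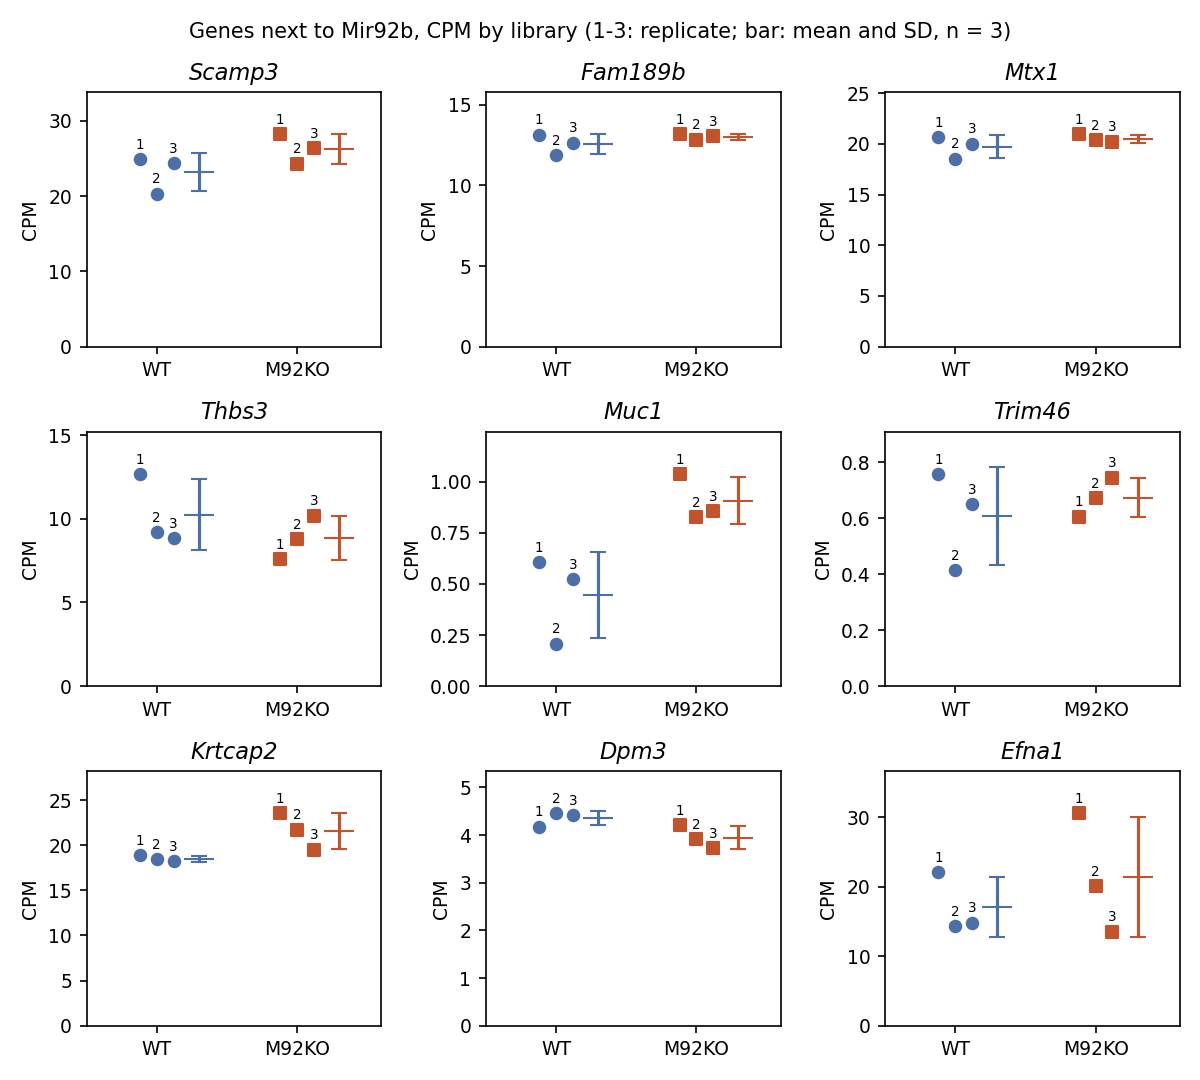
CPM of the 9 neighbouring genes in each library (circles, WT; squares, M92KO; numbers, replicate), with mean and SD (n = 3) beside the points; genes are in chromosome order and every axis begins at 0. The M92KO points lie above all WT points for Muc1 and Krtcap2 and overlap the WT points for the other 7 genes.

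**Figure D2:**
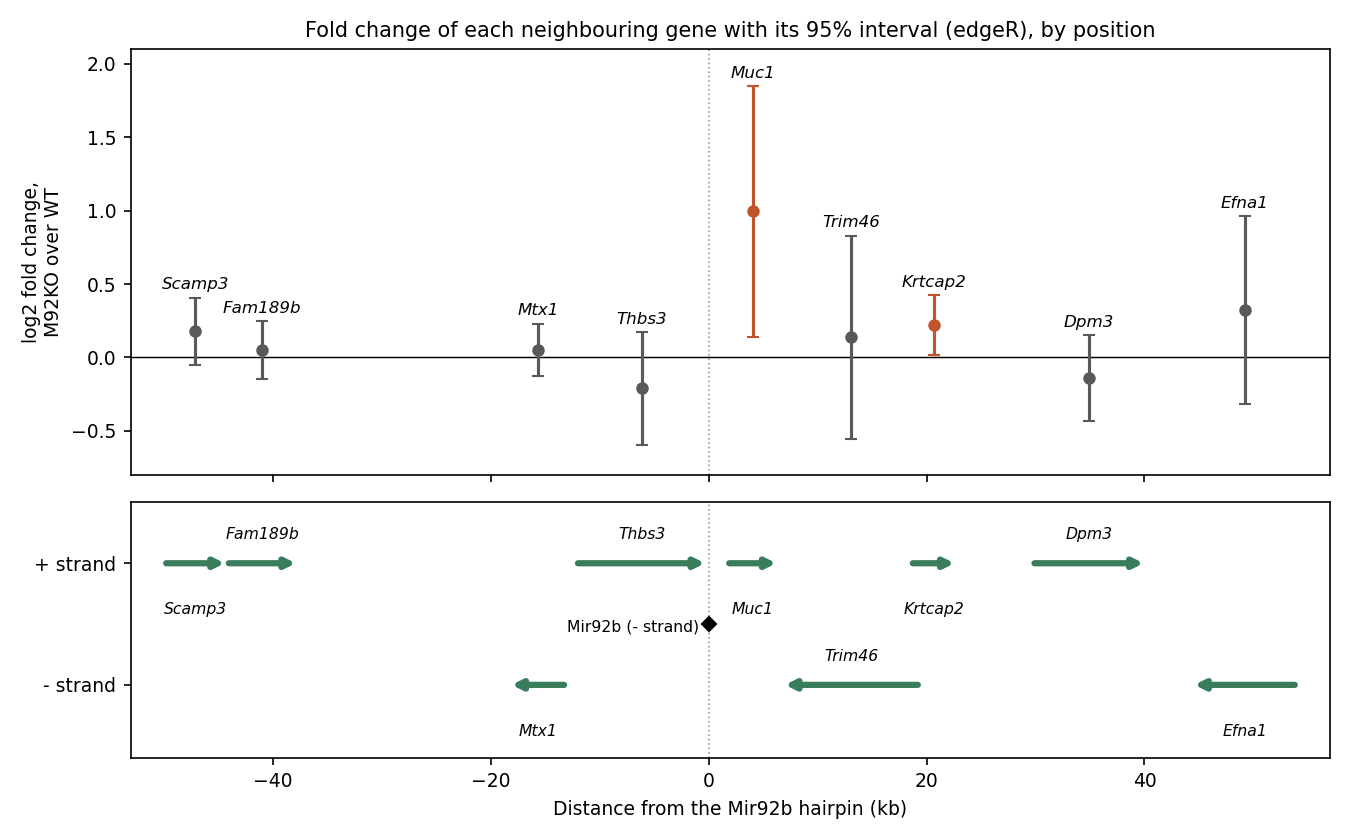
Upper panel, log2 fold change (M92KO over WT) of each neighbouring gene with its 95% interval from edgeR (n = 3 and 3), placed at the middle of the gene; orange marks genes whose groups did not overlap. Lower panel, RefSeq spans and strands by distance in kb from the Mir92b hairpin (diamond). The intervals of Muc1 and Krtcap2 exclude 0. The estimate of Trim46, which lies between them, is also above 0, and only those of Thbs3 and Dpm3 are below 0.

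Muc1, a transmembrane mucin of epithelial surfaces, starts on the other side of the hairpin from Thbs3 and had the largest fold change of the 9. Its counts were 28, 8 and 25 in WT and 36, 27 and 31 in M92KO, that is 0.606, 0.207 and 0.524 CPM against 1.04, 0.825 and 0.854 CPM. Every M92KO library was above every WT library, and WT replicate 2 was the lowest. The means were 0.446 ± 0.211 CPM in WT and 0.905 ± 0.115 CPM in M92KO (SD, n = 3 each), a 1.99-fold difference (95% interval 1.10 to 3.61, log2 1.00, SE 0.37, edgeR unadjusted p = 0.0273, adjusted p = 0.349). The gene was scarce: only 6.90% of the tested genes had a lower WT mean. The exact Poisson interval around the 8 counts of WT replicate 2 was 3.45 to 15.8 counts, below the intervals of all M92KO libraries, the lowest of which began at 17.8. Those of WT replicate 1 (18.6 to 40.5 counts) and WT replicate 3 (16.2 to 36.9 counts) overlapped the intervals of every M92KO library, in counts and in CPM. Without WT replicate 2 the log2 fold change was 0.68 (edgeR unadjusted p = 0.0592). It was 0.89 without M92KO replicate 1 (edgeR unadjusted p = 0.0771).

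A scarce transcript in whole muscle can come from few cells, and in bulk tissue fewer cells of a type and less RNA per cell cannot be told apart. Of 10 epithelial markers, 3 had enough counts to be tested and none of these was below 0.05. Krt14 was at or under the floor in all 6 libraries. The 10 markers summed to 1.28 to 2.56 CPM in WT and 1.52 to 1.89 CPM in M92KO, so the groups overlapped, and their part in the Muc1 difference was not tested. Among the other 5 transmembrane mucins listed, 2 were tested and Muc4, a membrane mucin, was lower (8.14 ± 1.07 CPM in WT and 3.48 ± 0.374 CPM in M92KO, n = 3, log2 fold change -1.23, edgeR adjusted p = 0.124). Muc4 thus had the opposite sign to Muc1, and no tested gene had a smaller adjusted p.

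Muc1 and Trim46 lie next to each other at similarly low levels, and their ratio within a library does not depend on its depth. Muc1 had 0.8, 0.5 and 0.807 counts for each count of Trim46 in WT, and 1.71, 1.23 and 1.15 in M92KO. The ratio was higher in every M92KO library than in every WT library. It uses the Muc1 counts whose separation is given above, so it is no separate evidence. Trim46, which bundles microtubules at the start of the axon, had 35, 16 and 31 counts in WT and 21, 22 and 27 in M92KO. In CPM these were 0.758, 0.414 and 0.650 against 0.605, 0.672 and 0.744. The groups overlapped, with WT replicates both highest and lowest, and the log2 fold change was 0.14 (SE 0.30, edgeR adjusted p = 0.899). Its interval ran from 0.682-fold to 1.78-fold, and without WT replicate 2 the sign turned (-0.062).

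LOC115489723, whose start window holds the hairpin, was counted in every library of both groups: 30, 9 and 24 counts in WT and 17, 19 and 32 in M92KO. These were 0.649, 0.233 and 0.503 CPM against 0.490, 0.580 and 0.881 CPM, and the groups overlapped (log2 fold change 0.48, SE 0.41, edgeR adjusted p = 0.699). Its span overlaps that of Thbs3 on the other strand and those of long Mtx1 transcripts on the same strand, so the origin of these reads could not be assigned. Muc1, Trim46 and this RNA, the 3 scarce genes nearest to the hairpin, each had their lowest value in WT replicate 2, an observation made after the values were seen. WT replicate 2 had 8, 16 and 9 counts of the 3 genes.

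Krtcap2, a subunit of oligosaccharyltransferase, the enzyme that attaches N-glycans to nascent proteins, was expressed far above the floor. It had 18.9, 18.5 and 18.2 CPM in WT and 23.5, 21.7 and 19.5 CPM in M92KO, from 709 to 872 counts in each library. All M92KO libraries were higher, although M92KO replicate 3 was only slightly above the WT range. The means were 18.5 ± 0.336 and 21.6 ± 2.002 CPM (SD, n = 3 each), a 1.17-fold difference (95% interval 1.01 to 1.34, log2 0.22, SE 0.09, edgeR unadjusted p = 0.0354, adjusted p = 0.373). The call was lost with offsets for GC content and transcript length (log2 0.17, unadjusted p = 0.0541). It was also lost on leaving out any 1 library other than M92KO replicate 3, with unadjusted p from 0.0627 to 0.0951 in edgeR.

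The partners of Krtcap2 in oligosaccharyltransferase were also counted. Of the other 11 subunits, all of them tested, 4 were higher at an unadjusted p under 0.05 and none was lower. Of all genes tested, 5.47% were higher and 6.92% lower at that threshold. The median log2 fold change of the 11 was 0.10. Rpn1, a ribophorin of the core complex, had 105, 99.6 and 98.5 CPM in WT and 121, 119 and 126 CPM in M92KO. Its groups did not overlap (log2 fold change 0.27, edgeR adjusted p = 0.186). Ddost, another core subunit, differed by 0.28 (adjusted p = 0.235) and Dad1, a small membrane subunit, by 0.22 (adjusted p = 0.291) on the log2 scale. The fourth was Magt1 at 0.26 (adjusted p = 0.373), an oxidoreductase subunit, named after its value was seen. Stt3b, the most abundant subunit per length and one of the catalytic ones, had 112 ± 5.77 CPM in WT and 126 ± 12.0 CPM in M92KO (n = 3, log2 0.17, adjusted p = 0.461). Summed over the 12 subunits, WT libraries had 541 to 561 CPM and M92KO libraries 599 to 651 CPM. The log2 fold change of Krtcap2 lay within the range of its partners (0.03 to 0.28). The number of other subunits called fell to 2 without WT replicate 2 and was 5 without M92KO replicate 1.

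**Figure D3:**
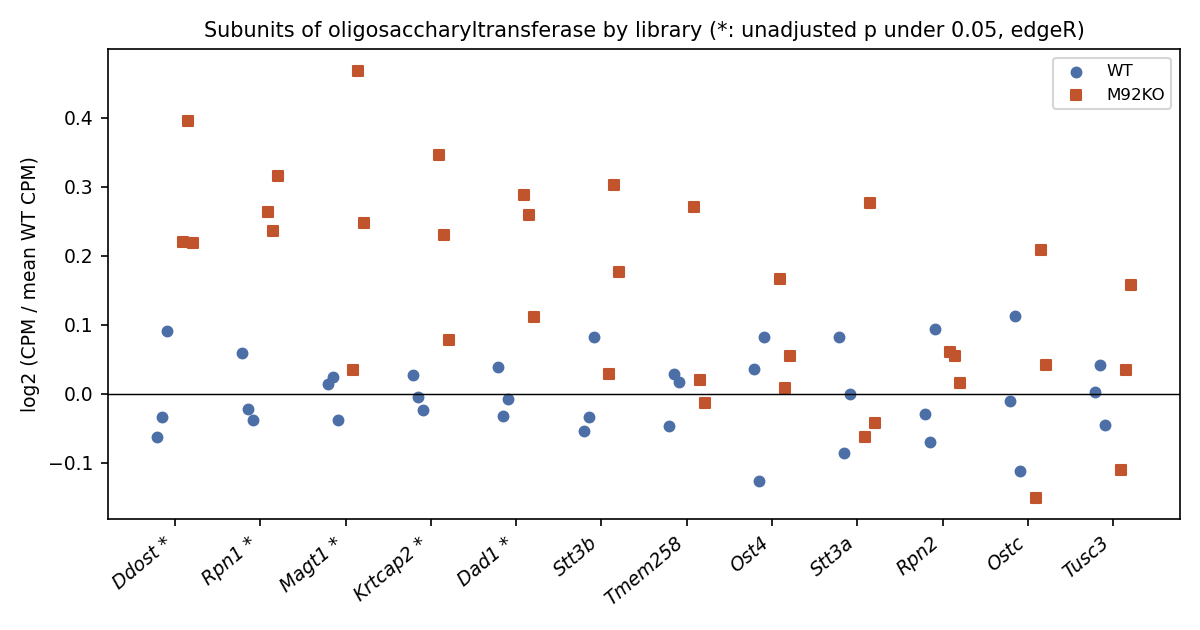
log2 ratio of CPM to the WT mean for the 12 oligosaccharyltransferase subunits in each library (circles, WT; squares, M92KO), ordered by fold change; asterisks mark an unadjusted p under 0.05 in edgeR. In 5 subunits, Krtcap2 among them, all M92KO points lie above all WT points, as they do for 8.77% of all genes tested.

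Dpm3, the subunit that anchors dolichol-phosphate mannose synthase in the membrane, supplies the same glycosylation pathway with its mannose donor, and its loss is known from forms of muscular dystrophy. It had 4.18, 4.45 and 4.42 CPM in WT and 4.204, 3.91 and 3.72 CPM in M92KO. M92KO replicates 2 and 3 were below all WT libraries, and M92KO replicate 1 was within the WT range. The log2 fold change was -0.14 (SE 0.13, edgeR adjusted p = 0.714), and the interval from 0.740-fold to 1.11-fold left room for a moderate difference. Of the 10 other genes listed for dolichol-phosphate mannose and its use, 1 was below an unadjusted p of 0.05. This was Pomt2, an O-mannosyltransferase, at 19.1 ± 0.578 CPM in WT and 16.8 ± 0.922 CPM in M92KO (n = 3, log2 -0.19, edgeR adjusted p = 0.390).

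Mtx1, a metaxin of the outer mitochondrial membrane, was one of the most even genes of the locus. Its values were 20.7, 18.5 and 20.01 CPM in WT and 20.9, 20.3 and 20.2 CPM in M92KO. The M92KO libraries lay in the upper part of the WT range, with 1 just above it. The fold change was 1.04 (95% interval 0.918 to 1.17, edgeR adjusted p = 0.831), so a difference beyond 1.5-fold in either direction was outside the interval. Of the 9 other genes for sorting and import into the outer membrane and its contact sites, Tomm20, a receptor of the import pore, was higher (88.7 ± 4.04 CPM in WT and 109 ± 7.06 CPM in M92KO, n = 3, log2 0.29, edgeR adjusted p = 0.208). The other 8 were not below 0.05.

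Thbs3, a secreted thrombospondin of the extracellular matrix, ends next to the hairpin and is transcribed toward it. It had 12.7, 9.19 and 8.84 CPM in WT and 7.60, 8.76 and 10.2 CPM in M92KO. The groups overlapped: WT replicate 1 was the highest, and 2 M92KO libraries were below all WT libraries. The log2 fold change was -0.21 (SE 0.17, edgeR adjusted p = 0.673) and was -0.026 without WT replicate 1. Among the 4 other thrombospondins, Thbs1 was lower, with 16.2, 50.7 and 94.8 CPM in WT and 8.06, 25.4 and 26.6 CPM in M92KO. Its groups overlapped and its spread in WT was wide (log2 -1.43, edgeR adjusted p = 0.390). Thbs4, the most abundant per length, had 84.1 ± 10.02 and 81.7 ± 14.6 CPM (log2 -0.041).

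Several markers of connective tissue, which expresses thrombospondins, were lower in the knockout libraries. Of 10 tendon markers, which include Thbs4 and Comp of the thrombospondin list, 5 were lower at an unadjusted p under 0.05 and none was higher, where 6.92% of all genes were lower. The number was 3 without WT replicate 1, without M92KO replicate 2 or without M92KO replicate 3. Their sum was 137 to 167 CPM in WT and 119 to 139 CPM in M92KO. Of 10 fibroblast markers 3 were lower, and their sum was 2492 to 3240 CPM in WT and 1910 to 2438 CPM in M92KO. No tendon or fibroblast marker was at or under the floor in all libraries. The part of these cells in the Thbs3 values was not tested. At the same threshold 3 of 10 Schwann cell and nerve markers, 1 of 7 fat markers and 1 of 8 leukocyte markers tested were lower. The gene of the fat list was Plin4 (log2 fold change -0.43, edgeR adjusted p = 0.336), whereas the median log2 fold change of the 7 fat markers was 0.62. Plin4 was the most abundant gene of that list (510 CPM in WT), and which cells its reads came from was not tested. The share of all genes that were lower was 6.92%. None of these markers was higher at an unadjusted p under 0.05, and none of 5 red cell markers tested was below that threshold.

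Efna1, a membrane-anchored ligand of EphA receptors, varied most between libraries among the 7 neighbours above 1 CPM. It had 22.1, 14.3 and 14.8 CPM in WT and 30.6, 20.1 and 13.5 CPM in M92KO, with both the highest and the lowest value in the knockout group. The coefficient of variation was 25.4% in WT and 40.2% in M92KO, while counting error was at most 4.52% in any library. The log2 fold change of 0.32 (SE 0.28, edgeR adjusted p = 0.701) was -0.028 without M92KO replicate 1 and 0.57 without M92KO replicate 3 (unadjusted p = 0.0441). Of the 8 other A-type ephrins and receptors tested, 4 were lower and none higher at an unadjusted p under 0.05, where 6.92% of all genes were lower. Epha4, a receptor, had the smallest p of them, with 9.07 ± 0.997 CPM in WT and 6.22 ± 0.537 CPM in M92KO (n = 3, log2 -0.54, edgeR adjusted p = 0.186). Efna5, a ligand, had a log2 fold change of -0.79 (adjusted p = 0.258) and Epha2, a receptor, of -0.48 (adjusted p = 0.337). The fourth was Epha3, a receptor, at -0.67 (adjusted p = 0.360), named after its value was seen. The number fell to 2 without WT replicate 2 or without WT replicate 3. Of 10 endothelial markers, cells in which Efna1 is well known, 1 was lower (6.92% of all genes), and the sums overlapped (1085 to 1182 CPM in WT and 974 to 1168 CPM in M92KO). Their part in the Efna1 values was not tested.

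Scamp3 and Fam189b lie next to each other on the far side of Mtx1. Scamp3, a carrier membrane protein of endosomes, had 24.9, 20.3 and 24.4 CPM in WT and 28.2, 24.3 and 26.4 CPM in M92KO. M92KO replicates 1 and 3 were above all WT libraries, and M92KO replicate 2 was within the WT range (log2 fold change 0.18, SE 0.10, edgeR adjusted p = 0.524). Gm45927 is a read-through locus that RefSeq places over Scamp3 and over another gene on the side away from Fam189b. It had 728, 796 and 1062 counts in WT and 617, 708 and 532 in M92KO. Its log2 fold change was -0.12 (edgeR adjusted p = 0.828). How reads were divided among these entries is not given in the sources used here, so Gm45927 is no second measure of Scamp3. None of the 4 other SCAMP genes was below an unadjusted p of 0.05, and Scamp2, the most abundant per length, had a log2 fold change of -0.077.

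Fam189b had 13.1, 11.9 and 12.6 CPM in WT and 13.2, 12.8 and 13.1 CPM in M92KO. The groups overlapped within a narrow band, and the fold change of 1.04 had an interval from 0.905 to 1.19 (edgeR adjusted p = 0.857). Of its 2 relatives only Fam189a2 was tested, with a log2 fold change of -0.049. Of the 7 TRIM genes listed beside Trim46 and tested, which are not all of its subfamily, 1 was below an unadjusted p of 0.05. It was the muscle-specific Trim54 (302 ± 5.17 CPM in WT and 364 ± 29.7 CPM in M92KO, n = 3, log2 0.27, edgeR adjusted p = 0.243). For 5 neighbours, namely Mtx1, Krtcap2, Fam189b, Scamp3 and Dpm3, the 95% interval lay within 1.5-fold in both directions. It was wider for Muc1, Trim46, Thbs3 and Efna1.

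Per kb of exon, the scale on which genes can be compared, the 9 genes spanned a wide range in WT muscle. Krtcap2 was highest at 12.2 ± 0.221 CPM per kb (SD, n = 3), followed by Scamp3 (10.2 ± 1.10) and Efna1 (9.33 ± 2.37). Scamp3 and Efna1 did not differ beyond their spread. Mtx1 had 5.51 ± 0.305 CPM per kb, Dpm3 had 4.73 ± 0.164, Fam189b had 3.44 ± 0.173 and Thbs3 had 2.12 ± 0.441. Muc1 (0.190 ± 0.0898) and Trim46 (0.160 ± 0.0463) were lowest and overlapped in WT. In M92KO the level per kb was 0.386 ± 0.0490 for Muc1 and 0.178 ± 0.0183 for Trim46, and the libraries of the 2 genes no longer overlapped. The highly and weakly expressed genes were interleaved along the chromosome, with the 2 scarce ones side by side. Summed over the 9 genes, WT libraries had 118, 97.8 and 104 CPM and M92KO libraries 130, 113 and 108 CPM, and the groups overlapped.

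Widening the view showed how the neighbours compared with the rest of the region. Within 50 kb of the hairpin 13 genes were tested, the 9 neighbours and 4 others (15.4% below an unadjusted p of 0.05), and none of these 4 was below it. Within 200 kb 26 genes were tested and 3 were below it, all higher in M92KO (11.5%). Within 1 Mb 72 genes were tested, of which 8 were higher and 3 lower (15.3%). Without the 9 neighbours, 6 of 63 were higher and 3 lower (14.3%). Over all genes it was 12.4%. Groups without overlap made up 27.8% of the 72 genes (12 higher and 8 lower), against 18.4% of all genes. The smallest adjusted p within 1 Mb was 0.179.

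**Figure D4:**
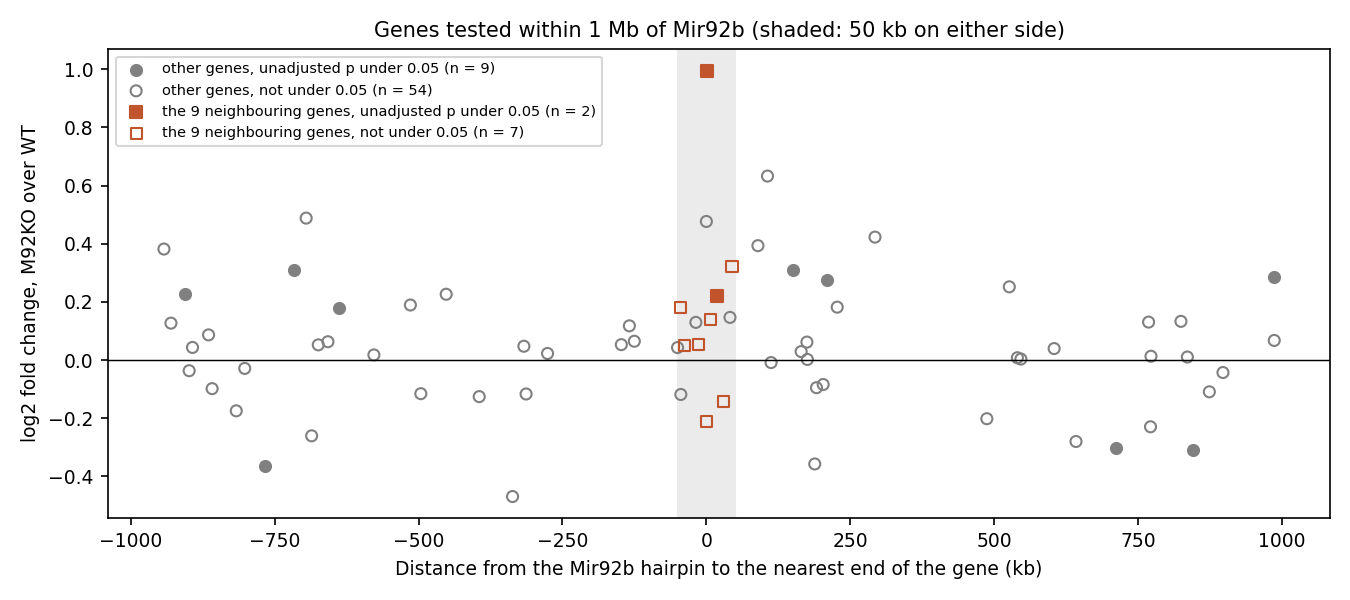
log2 fold change (M92KO over WT) of the 72 genes tested within 1 Mb of Mir92b against the distance in kb from the hairpin to the nearest end of the gene; squares are the 9 neighbours, filled symbols have an unadjusted p under 0.05 in edgeR, and the shaded band is 50 kb on either side. Filled symbols occur along the region. Those below 0 begin 712283 bases from the hairpin, and the nearer ones are all above 0. Muc1 has the largest fold change of the 72.

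The promoters of Muc1 and Krtcap2, the 2 neighbours below an unadjusted p of 0.05 in edgeR, are printed with motifs in capitals. Each holds the 250 bases before and 50 bases after a RefSeq start. Of the 9 genes, 8 had a promoter in the RefSeq table. Each motif was searched on both strands. The letters of the TATA box, TATAAA, are in 13.6% of 32851 promoters of this length. Those of the CCAAT box are in 37.4%, and those of the GC box, GGGCGG, in 35.7%. A window of Muc1 (chr3:89228806-89229105, plus strand) held a TATA box letter match beginning 31 bases before the start, 1 match to the CCAAT box on the opposite strand and 2 to the GC box. A window of Krtcap2 (chr3:89246223-89246522, plus strand), which overlaps the span of Trim46, held 1 match to the CCAAT box on the opposite strand and 1 to the GC box. This CCAAT match lies after the start. The other Krtcap2 window (chr3:89246188-89246487) held 1 match to the GC box and none to the CCAAT box.
Muc1 promoter: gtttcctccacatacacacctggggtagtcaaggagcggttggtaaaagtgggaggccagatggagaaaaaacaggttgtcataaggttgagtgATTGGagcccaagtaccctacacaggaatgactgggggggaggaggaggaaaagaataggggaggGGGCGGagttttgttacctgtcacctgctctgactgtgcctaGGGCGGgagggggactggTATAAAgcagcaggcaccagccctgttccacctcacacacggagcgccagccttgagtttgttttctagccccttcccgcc
Krtcap2 promoter: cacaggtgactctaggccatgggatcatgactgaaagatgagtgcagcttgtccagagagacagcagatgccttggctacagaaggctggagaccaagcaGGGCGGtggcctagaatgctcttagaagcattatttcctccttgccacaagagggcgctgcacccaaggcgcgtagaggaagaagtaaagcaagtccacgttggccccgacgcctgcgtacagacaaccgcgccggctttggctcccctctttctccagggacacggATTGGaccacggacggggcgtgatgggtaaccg
None of the other windows of the neighbours held the TATA box letters. CpG dinucleotides numbered 6 in the Muc1 window and 16 in the printed Krtcap2 window (12 in its other window). The median over all promoters was 7.0, and Mtx1 had the most of the neighbours with 32. These matches describe letters, and binding was not measured.

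The 3′-UTRs of the 9 genes were searched for matches to the seeds of both arms. The 7 bases GTGCAAT, which pair with the seed of miR-92b-3p, were in none of the 9, while 6.96% of 20919 genes hold them. The 7 bases CCGTCCC, for miR-92b-5p, were in 1 of the 9, Trim46, against 3.07% of genes. The site lies in a 3′-UTR of 1039 bases and is printed with 10 bases on either side.
Trim46 site for miR-92b-5p: aagccctgttCCGTCCCtggcctgtgc
Trim46 was not among the genes with a difference. Muc1 and Krtcap2, which were higher in M92KO, had no such match to either arm.

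**Figure D5:**
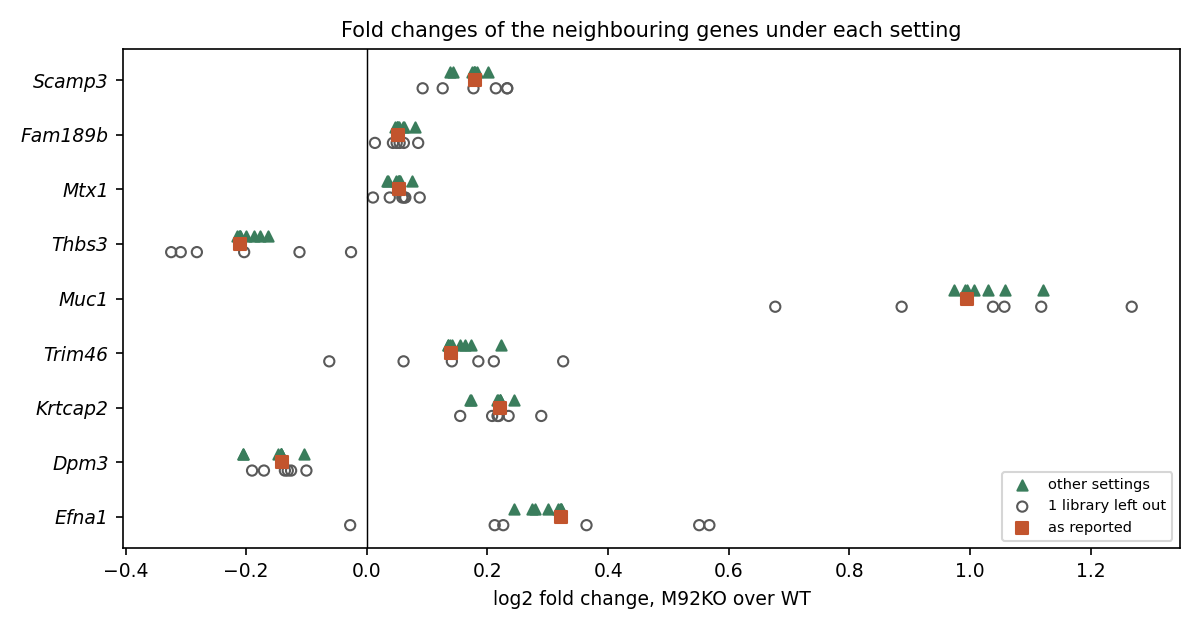
log2 fold change (M92KO over WT) of each neighbouring gene as reported (squares), with 1 library left out (open circles) and under the other settings (triangles). All values of Muc1, Krtcap2, Scamp3, Fam189b and Mtx1 lie above 0 and all of Thbs3 and Dpm3 below 0, whereas Trim46 and Efna1 each have 1 value across 0.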

How the data were processed

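RNA sequencing of Gas muscle gave 6 libraries (3 WT, 3 M92KO), built with a SMARTer mRNA kit. The authors deposited raw counts per gene symbol without normalization. The submitters' processing notes name GRCm38 and mm10, while the aligner, the counting program, its strand setting and the annotation are not given in the sources used here. The analysis used edgeR 4.0.16 under R 4.3.3, with filterByExpr (minimum count 10, minimum total 15), TMM, glmQLFit and glmQLFTest without a covariate, over all 15788 genes, with Benjamini-Hochberg adjustment. CPM used TMM-normalized library sizes. Floors (3 counts) and exact Poisson intervals (95%) cover counting error only. Exact permutation tests were two-sided, on log2 CPM. Alternatives were DESeq2 1.42.0 (size factors, Wald test), other filters, a replicate block, GC and length offsets (14752 genes), leaving out each library, and the study's listed steps (quantile normalization, log2 after adding 1, limma 3.58.1). The edgeR step was run on simulated data with planted changes at least as large as that of Muc1. That run therefore does not show whether the smaller changes of the other neighbours could be detected.

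Positions, promoters and microRNA sequences came from RefSeq GRCm38.p6, in which all 34714 symbols had a position. Exons and 3′-UTRs came from GENCODE M21 (25731 symbols matched directly and 422 by a synonym). The files hold no column of other samples. The 9 genes and the lists of pathway genes and markers were chosen with earlier results of these data known. Named were the 9 genes, genes whose exons overlap theirs, the most abundant gene of a list and, in each list, up to 3 genes by p under 0.05; further names are marked.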

Additional observations from a re-analysis of the deposited data

How the results depend on the processing

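At an adjusted p under 0.05, edgeR called no gene as reported, 6 without a filter on low counts, 2 with the replicate block, 2 with GC and length offsets and the block, and 0 to 401 with 1 library left out (401 without M92KO replicate 1, 5 without WT replicate 1). DESeq2's Wald test called 322 and the study's listed steps 42. At an unadjusted p under 0.05 the count was 1955, and 1222 to 2984 with 1 library left out (1222 without WT replicate 2, 1272 without WT replicate 3 and 2984 without M92KO replicate 1). Among the 9 neighbours 2 were below 0.05 as reported and 1 with at least 10 counts in every library, where Muc1 (8 counts in WT replicate 2) was not tested. The number was 1 with GC and length offsets, with these and the block, and under the study's steps, and 0 to 2 with 1 library left out. It was 0 without WT replicate 2 or without M92KO replicate 1, and 1 without WT replicate 1, WT replicate 3 or M92KO replicate 2. The neighbours without overlap numbered 2 as reported, 4 with GC and length offsets, 1 with at least 10 counts in every library (Muc1 left out), and 2 to 5 with 1 library left out (5 without WT replicate 1). The block and the Wald test do not enter CPM, so they gave no value of their own for this count. The median log2 fold change of the 9 was 0.013 to 0.233 with 1 library left out, lowest without WT replicate 2. Trim46 ranged from -0.062 (without WT replicate 2) to 0.326 and Efna1 from -0.028 (without M92KO replicate 1) to 0.568 (without M92KO replicate 3, its only unadjusted p under 0.05). Muc1 stayed above 0 in all 13 alternatives (0.68 to 1.27) but lost its call in 4, among them the study's steps (1.12, limma unadjusted p = 0.0545) and the fit without M92KO replicate 3 (edgeR unadjusted p = 0.0514). Krtcap2 stayed above 0 in all 14 (0.15 to 0.29) and lost its call in 7. Apart from the fewer libraries or genes in such fits, the cause was not tested.

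Deviations of same-numbered libraries correlated at 0.081, 0.038 and 0.015, and those of the other pairs of WT and M92KO libraries at -0.069 to 0.036. With 3 libraries in each group these values cannot settle whether same-numbered libraries share more than a number. With the replicate block 1691 genes were below an unadjusted p of 0.05, the same 2 neighbours were (Muc1 1.06 and Krtcap2 0.22 on the log2 scale), and their median was 0.16.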
